A study of Arabidopsis thaliana with 40 samples.

Results

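The nuclear auxin signalling genes of *Arabidopsis thaliana* were described in single-cell RNA profiles of the root quiescent center (QC). The set held 58 of the 32678 loci in the table: 6 TIR1/AFB receptors, 29 Aux/IAA repressors and 23 AUXIN RESPONSE FACTOR (ARF) transcription factors. They were chosen by locus identifier as the members of these 3 families, and all 58 had a row. WOX5:GFP roots of the Col-0 background were harvested 5 days after stratification, treated with wall-digesting enzymes and dissociated, and the cells with GFP were collected by fluorescence-activated sorting. Poly(A) RNA was amplified by CEL-Seq, which tags each cell with a barcode, amplifies by in vitro transcription and reads mainly the 3′ ends of transcripts. All 40 samples formed 1 group with no mutant, treatment or time series, and the labels name no plant, culture or batch. The WOX5 promoter that drives the reporter defines the sorted cells, so the samples stand for cells with GFP and not for a position seen under a microscope.

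Auxin acts as a glue between its receptor and a repressor. TIR1 and its AFB relatives are F-box proteins of an SCF ubiquitin ligase, and auxin in their pocket lets them bind the degron of Aux/IAA proteins, which are then degraded. Without auxin, Aux/IAA proteins sit on ARF proteins at auxin response elements and recruit TOPLESS corepressors. In the root tip, an auxin maximum at the QC is known to position the stem cell niche.

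The 39 profiles found were nested: over the 38 steps from a profile to the next deeper one, 0 values went down. Each deeper profile was at least as high as every shallower one at every row, so they are not independent cells, and the 39 were counted as 1 sample, with no test between them. Total counts over *Arabidopsis* loci lay between 57655 (QC cell 4) and 7431708 (QC cell 22), with 2096738 in the profile of median depth (QC cell 13). Levels are given as CPM, the count per 1000000 counts of the loci, in the deepest profile, where 1 count is 0.135 CPM, with exact Poisson 95% intervals. These intervals cover counting error only, since no molecular identifiers are stated. Whether fewer cells held a transcript or each cell held less of it cannot be told apart. Of 5 QC markers, WOX5 (10.6 CPM) and SCR (28.5 CPM) were above 0, and PLT1, PLT2 and BBM were listed at 0, as was the GFP row. All 4 markers of other root cells were above 0. They had 1.21 CPM for VND7 (xylem), 4.17 CPM for SHR and 33.5 CPM for WOL (stele) and 8.48 CPM for GL2 (epidermis). Both marker counts stand beside 60.3% of protein-coding loci above 0, and WOL was higher than WOX5 and SCR. The part of other root cells in the levels below was not tested. Since 3 genes known for their activity in the QC were at 0, a member listed at 0 is only named, with no limit on its level.

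The Aux/IAA degron is the site that TIR1/AFB proteins bind, and its core is a run of 5 residues. A search of the translated coding sequences found the core as IAA16 encodes it, called full here, in 17 of 29 Aux/IAA proteins. The word full means the same 5 residues as in IAA16. It does not mean that other forms are not bound, which was not tested. The first 4 residues of the core were found in 23, since IAA8, IAA10, IAA11, IAA12, IAA13 and IAA27 differ from IAA16 in the last one. The 5 Aux/IAA genes with the highest counts and the genes of 3 closest pairs compared below are shown as 45 coding bases from RefSeq (TAIR10.1), 5′ to 3′ on the coding strand, with the 5 core codons in capitals:
IAA16: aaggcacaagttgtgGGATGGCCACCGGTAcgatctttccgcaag
IAA9: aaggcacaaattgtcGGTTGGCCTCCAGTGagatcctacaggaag
IAA8: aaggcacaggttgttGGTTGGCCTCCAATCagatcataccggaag
IAA28: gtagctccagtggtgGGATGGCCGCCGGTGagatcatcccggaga
IAA17: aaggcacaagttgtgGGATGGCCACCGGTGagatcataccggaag
IAA2: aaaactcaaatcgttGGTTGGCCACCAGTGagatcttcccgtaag
IAA1: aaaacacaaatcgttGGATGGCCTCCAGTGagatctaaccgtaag
IAA7: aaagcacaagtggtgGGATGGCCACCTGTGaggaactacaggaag
IAA14: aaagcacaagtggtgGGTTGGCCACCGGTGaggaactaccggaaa
IAA11: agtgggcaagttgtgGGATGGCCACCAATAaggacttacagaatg
IAA10: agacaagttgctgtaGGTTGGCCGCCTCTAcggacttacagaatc

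The degron of IAA16 lies at chr3:1289721-1290214 on the minus strand and that of IAA9 at chr5:26255003-26255142 on the plus strand, both interrupted by an intron. That of IAA28 lies within 1 exon at chr5:9033806-9033850 on the plus strand. The 23 cores used 20 different sets of 5 codons for nearly the same peptide. IAA20 and IAA30 to IAA34 had neither form of the core.

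In the deepest profile 37 of the 58 members (63.8%) were above 0, beside 51.3% of all loci and 60.3% of protein-coding loci. The share of members was thus near that of protein-coding loci. At 10 CPM or more were 24 members (41.4%), beside 27.8% of all loci and 33.2% of protein-coding loci. At 100 CPM or more were 6 members, AFB4, TIR1, IAA16, IAA9, IAA8 and ARF9, beside 5.41% of all loci and 6.36% of protein-coding loci. In the profile of median depth 33 members were above 0, beside 46.1% of all loci and 54.6% of protein-coding loci, and in every profile 13 were, beside 15.3% and 18.4%. Together the members held 14586 counts, or 1963 CPM.

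By class, all 6 TIR1/AFB genes, 20 of 29 Aux/IAA genes (69.0%) and 11 of 23 ARF genes (47.8%) were above 0, beside 60.3% of protein-coding loci. At 10 CPM or more were all 6 TIR1/AFB, 11 Aux/IAA and 7 ARF genes, beside 33.2% of protein-coding loci. The receptors had no member at 0, while 9 Aux/IAA and 12 ARF genes were listed at 0. Of these 12, 8 were ARF12 to ARF15 and ARF20 to ARF23, and without these 8, an alternative chosen after seeing the data, 11 of 15 ARF genes (73.3%) were above 0, so the lower share of ARF than of Aux/IAA genes rests on them.

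Summed over a class, the repressors held the most counts. The Aux/IAA genes summed to 1017 CPM (994 to 1040), which was 51.8% of the counts of all members. The TIR1/AFB genes summed to 497.6 CPM (482 to 514) and the ARF genes to 448.5 CPM (433 to 464). The order was the same per kb of coding length, at 1432, 272.3 and 204.9 CPM per kb, although CEL-Seq reads transcript ends and a count is not expected to scale with length. The receptors had the highest level per gene, 82.9 CPM, against 35.1 CPM for Aux/IAA and 19.5 CPM for ARF genes, and the highest median, 28.4 CPM, against 1.75 and 0 CPM. A single gene held a large share of each sum: AFB4, which shares its 3′ end with a gene on the other strand, held 60.3% of the TIR1/AFB sum, IAA16 31.9% of the Aux/IAA sum and ARF9 42.9% of the ARF sum. Without the leading gene of each class, the Aux/IAA sum was 692.6 CPM, the ARF sum 256.2 CPM and the TIR1/AFB sum 197.7 CPM, so ARF and TIR1/AFB genes changed places. The plot of all 58 levels shows this steep fall within each class.

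**Figure D1:**
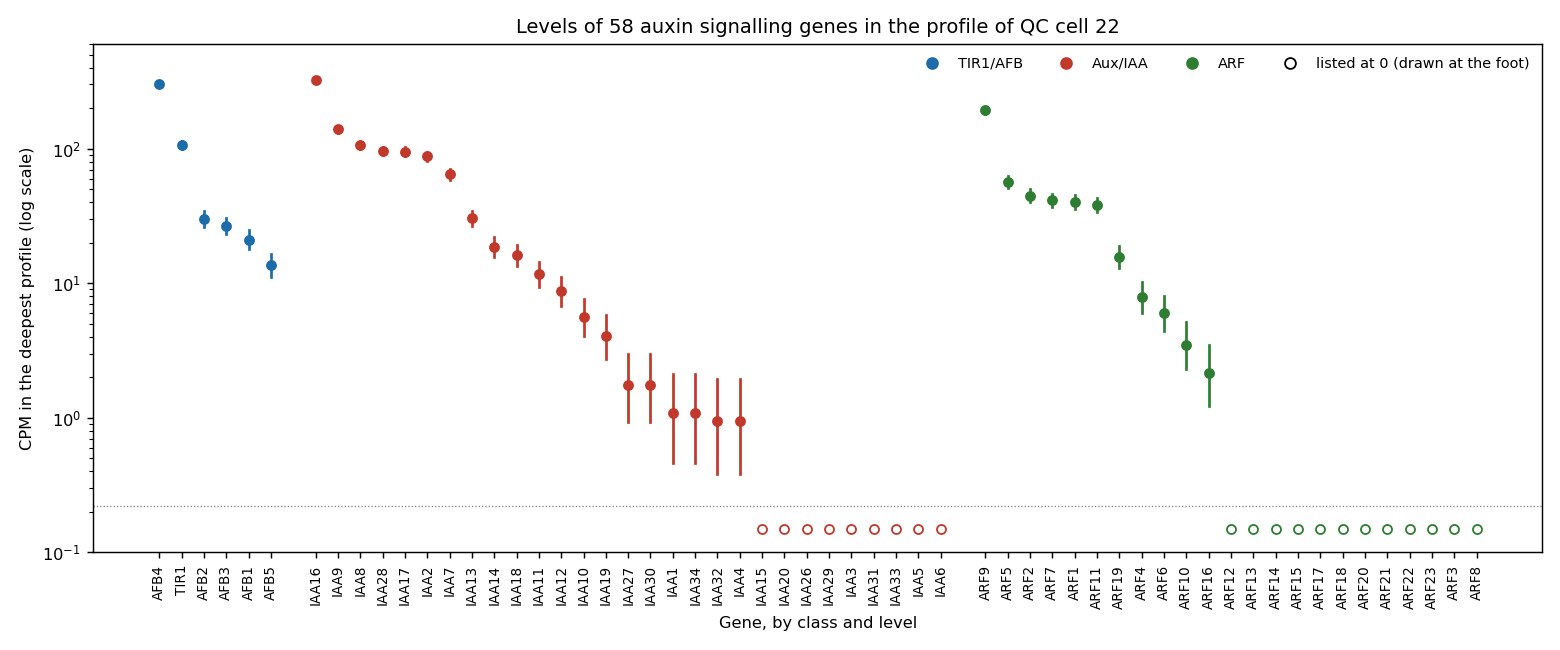
Level of each of the 58 genes in the deepest profile (vertical axis, CPM on a log scale) by class and rank (horizontal axis). Points are CPM, bars exact Poisson 95% intervals of the count, and open points at the foot genes listed at 0. IAA16 at 324 CPM and AFB4 at 299.9 CPM lead, all 6 TIR1/AFB genes are filled points, and 12 of 23 ARF genes are open points.

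Among the receptors, AFB4 (AT4G24390, chr4:12613076-12616238, minus strand), known with AFB5 for binding picloram-type auxins, had the most counts. It had 20 counts in the shallowest profile, 625 in that of median depth and 2229 in the deepest, or 299.9 CPM (288 to 313), and was above 0 in all 39 profiles. Over the profiles its level lay between 298 and 388 CPM, with a median of 306 CPM. Nested profiles share their counts, so these levels are not repeated measurements. Only 1.46% of loci were higher in the deepest profile. Of the 58 members, 17 overlap another annotated gene, 14 of these above 0. In TAIR10.1, 644 of the 3163 bp of AFB4, at its 3′ end, overlap AT4G24380 on the other strand, which had 271.9 CPM. Whether the counting used strand is not given in the sources used here, so reads of AFB4 and of AT4G24380 cannot be told apart.

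TIR1 (AT3G62980), the founding auxin receptor, had 7, 225 and 789 counts in the shallowest, median and deepest profiles. Its deepest level was 106.2 CPM (98.9 to 114), it was above 0 in all 39 profiles, and its levels over them lay between 94.6 and 122 CPM. No other annotated gene overlaps TIR1. The other receptors were lower: AFB2 (AT3G26810) had 224 counts (30.1 CPM, 26.3 to 34.4, 39 profiles) and AFB3 (AT1G12820) had 198 counts (26.6 CPM, 23.1 to 30.6, 38 profiles). AFB1 (AT4G03190) had 157 counts (21.1 CPM, 18.0 to 24.7, 39 profiles). AFB5 (AT5G49980) had 101 counts (13.6 CPM, 11.1 to 16.5, 36 profiles). Per kb of coding length AFB4 (160.5 CPM per kb) and TIR1 (59.6 CPM per kb) also led the class, and AFB5 was again last with 7.32 CPM per kb. Over 51 and 63 bp at their 3′ ends, AFB1 and AFB3 overlap genes on the other strand that had 19.5 and 38.6 CPM, so these receptor levels share the limit of AFB4.

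The Aux/IAA genes fell into a group of 7 above 0 in every profile and a long tail. IAA16 (AT3G04730, chr3:1288155-1290891, minus strand), whose stabilised form is known to dampen auxin responses, had 19, 650 and 2408 counts in the shallowest, median and deepest profiles. Its deepest level, 324.0 CPM (311 to 337), was the highest of all 58 members, both as CPM and per kb of coding length (457.7 CPM per kb). Over the 39 profiles it lay between 279 and 331 CPM.

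IAA9 (AT5G65670) had 8, 306 and 1036 counts in the same 3 profiles, with 139.4 CPM (131 to 148) in the deepest. Its closest relative IAA8 (AT2G22670) had 3, 207 and 794 counts, with 106.8 CPM (99.5 to 115). IAA28 (AT5G25890), known to hold back lateral root initiation, had 3, 197 and 715 counts, with 96.2 CPM (89.3 to 104). Per kb of coding length IAA28 was second of all members, at 183.3 CPM per kb, since its coding sequence is short. IAA17 (AT1G04250), known as AXR3 from its auxin-resistant mutant, had 6, 193 and 705 counts, with 94.9 CPM (88.0 to 102). IAA2 (AT3G23030), whose promoter is much used as an auxin response reporter, had 3, 182 and 654 counts, with 88.0 CPM (81.4 to 95). IAA7 (AT3G23050), known as AXR2, had 6, 144 and 479 counts, with 64.5 CPM (58.8 to 70.5). These 7 genes were above 0 in all 39 profiles. As CPM, the intervals of IAA8, IAA28, IAA17 and IAA2 each overlapped that of the next, so the order of these neighbours is not resolved, while IAA16, IAA9 and IAA7 stood clear of theirs.

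The rest of the Aux/IAA class was lower. IAA13 (30.4 CPM), IAA14 (18.6 CPM), IAA18 (16.1 CPM) and IAA11 (11.7 CPM) were the other members at 10 CPM or more. IAA12, known as BODENLOS and as the partner of ARF5 in embryonic root formation, had 8.75 CPM. IAA10 (5.65 CPM) and IAA19 (4.04 CPM) followed, and IAA27, IAA30, IAA1, IAA34, IAA32 and IAA4 had between 7 and 13 counts each, or 0.942 to 1.75 CPM. IAA27 overlaps over 41 bp a gene on the other strand with 72.0 CPM. At its 3′ end IAA32 overlaps over 826 bp a gene on the other strand with 7.00 CPM. IAA34 overlaps over 156 bp a gene on the same strand with 2.56 CPM. Listed at 0 were IAA3, known as SHY2 and as a regulator of root meristem size, and IAA5, IAA6, IAA15, IAA20, IAA26, IAA29, IAA31 and IAA33.

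Most Aux/IAA counts came from genes with the full degron core. The 17 genes with the full core, such as IAA16 and IAA28 in the sequences printed above, summed to 847.7 CPM, of which IAA16 held 38.2%. Of these 17, 11 (64.7%) were above 0, beside 60.3% of protein-coding loci. The 12 others, which include the genes whose core differs from that of IAA16 only in the last residue, summed to 168.9 CPM. Of this sum IAA8, with another last residue, gave 106.8 CPM. Of these 12, 9 (75.0%) were above 0, so the share above 0 was not higher with the full core. With any last residue allowed, a choice made after the values were seen, the 23 genes with the first 4 residues held 7527 counts (1013 CPM). Of these 23, 17 (73.9%) were above 0. The 6 genes without them held 28 counts (3.77 CPM, 2.50 to 5.45), from IAA30, IAA32 and IAA34. Medians were 8.75 CPM over the 23 genes and 0.471 CPM over the 6.

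Among the ARF genes, ARF9 (AT4G23980, chr4:12451143-12455369, plus strand) had the most counts, 414 in the profile of median depth and 1429 in the deepest, or 192.3 CPM (182 to 203). ARF9 is a class B ARF, known to act with IAA10 in the suspensor of the embryo. It was above 0 in 28 of 39 profiles, and it did not enter in proportion to depth. At a total of 598893 counts it was listed at 0, where its deepest level would give 115 counts, and at a total of 692301 it had 104. The listed value of ARF9, and with it the ARF sum, therefore differs between the 11 shallower and the 28 deeper profiles. This is a difference in what is listed, and the cause of the 0s was not tested. No other member had a first count of 30 or more, a limit that favours members with many counts. Smaller late entries were seen in other members. IAA12 was at 0 where its deepest level would give 9.67 counts, and its first count was 17. ARF11 was at 0 where 6.27 counts would be given, and its first count was 9. In deeper profiles ARF9 stayed close to the line of its deepest level, as the plot of counts against total count shows.

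**Figure D2:**
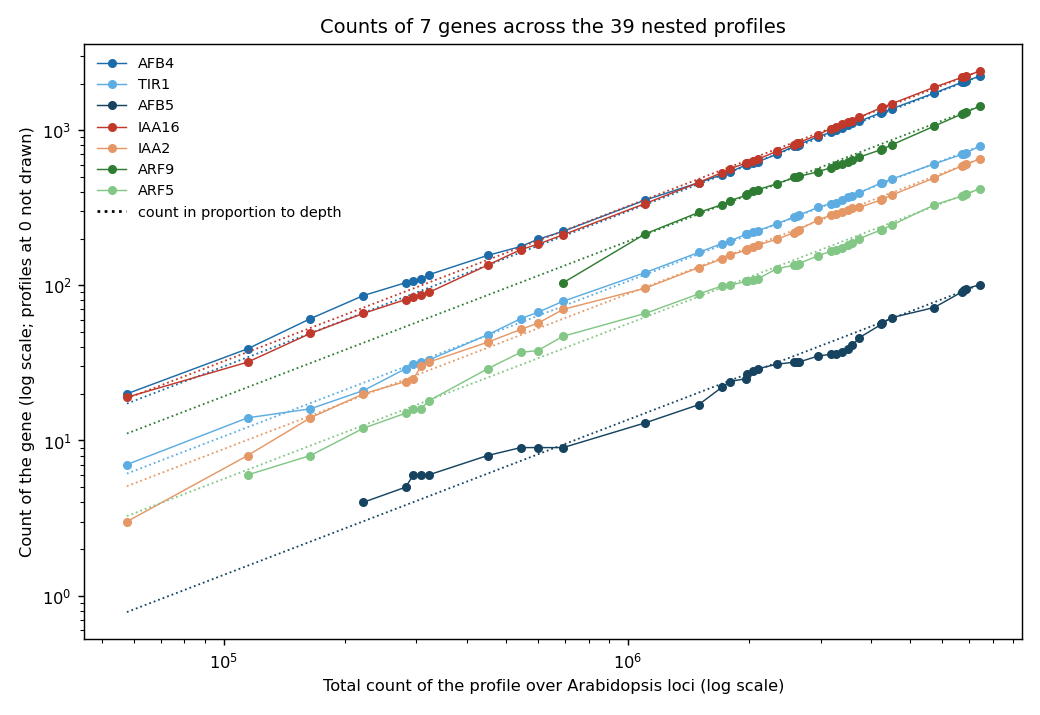
Count of 7 genes (vertical axis, log scale) against the total count of each of the 39 nested profiles (horizontal axis, log scale). Dotted lines give the count in proportion to depth from the deepest profile. IAA16, AFB4, TIR1, IAA2, ARF5 and AFB5 run along their lines, while ARF9 is drawn from 104 counts on and is at 0 in 11 profiles.

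ARF5 (AT1G19850), known as MONOPTEROS and needed for the embryonic root, had 0, 110 and 420 counts in the shallowest, median and deepest profiles. Its level was 56.5 CPM (51.2 to 62.2) in the deepest profile, and it was above 0 in 38. ARF2 (AT5G62000), a repressor, had 332 counts (44.7 CPM, 40.0 to 49.7, 38 profiles). ARF7 (AT5G20730), known as NPH4 and an activator in lateral root formation, had 307 counts (41.3 CPM, 36.8 to 46.2, 39 profiles). ARF1 (AT1G59750), a repressor, had 298 counts (40.1 CPM, 35.7 to 44.9, 39 profiles). ARF2, ARF7, ARF1 and ARF11 (284 counts, 38.2 CPM, 33.9 to 42.9, 36 profiles) were neighbours in level with overlapping intervals, so their order is not resolved. Per kb of coding length the order changed, with ARF11 at 21.2, ARF5 at 20.9, ARF1 at 20.1, ARF2 at 17.3 and ARF7 at 11.8 CPM per kb. At its 3′ end ARF7 overlaps over 254 bp a gene on the other strand that had 53.2 CPM, so the limit stated for AFB4 holds for ARF7 too.

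ARF19 (15.7 CPM), ARF4 (7.94 CPM), ARF6 (6.06 CPM), ARF10 (3.5 CPM) and ARF16 (2.15 CPM) were the other ARF genes above 0. ARF10 and ARF16 are microRNA targets known to act in the root cap. At 0 were ARF3, known as ETTIN, ARF8, ARF17, ARF18, and ARF12 to ARF15 with ARF20 to ARF23. These last 8 genes lie on chromosome 1. Of them 6 had a closest relative in the class with 86.5% to 92.4% protein identity, while ARF13 (46.9%) and ARF23 (33.6%) were more distant. Whether reads of these genes had more than 1 location was not tested. The ARF median was 7.94 CPM without the 8. ARF proteins are commonly grouped as class A activators with a glutamine-rich middle region and class B and C repressors. Glutamine made up 6.98% to 15.3% of the residues of class A proteins, 3.81% to 6.12% of class B and 2.24% to 4.44% of class C. Shares above 0 stand beside 60.3% of protein-coding loci. Class A had 4 of 5 genes above 0 and 119.6 CPM (112 to 128). Class B had 5 of 15 genes (33.3%) above 0 and 323.2 CPM (310 to 336), of which ARF9 made 59.5%. The class B genes at 0 include all 8 of ARF12 to ARF15 and ARF20 to ARF23, and counting them lowers its share. Class C had 2 of 3 genes above 0 and 5.65 CPM (4.07 to 7.64).

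**Figure D3:**
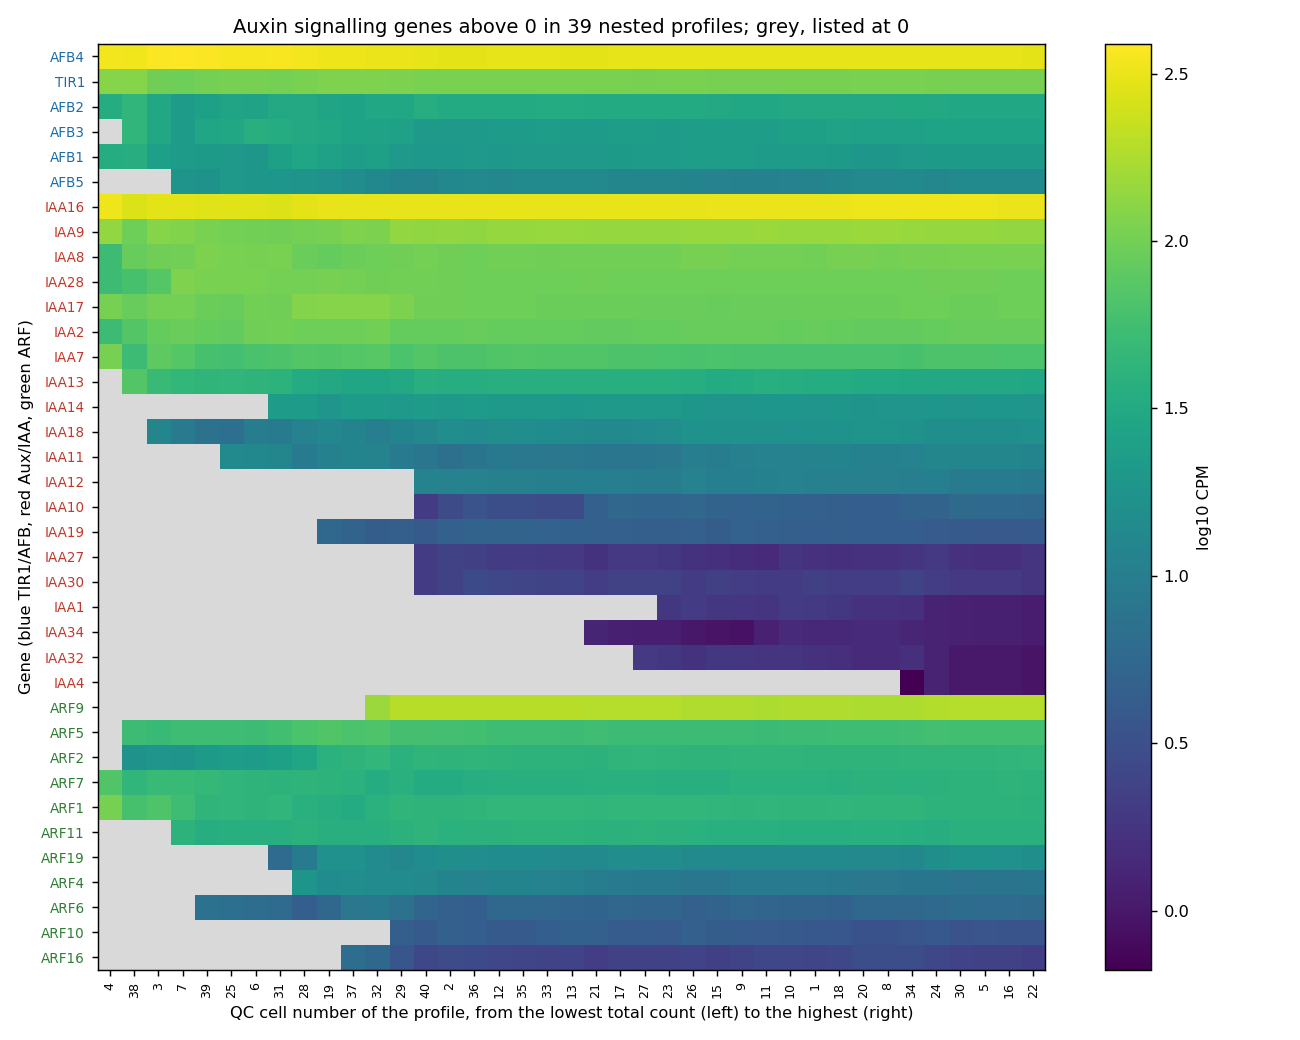
Level of the 37 members above 0 (rows, by class and level) in the 39 nested profiles (columns, from the lowest to the highest total count), coloured by log10 CPM, with grey for a value of 0. The 13 members with no grey cell include AFB4, TIR1 and IAA16, ARF9 turns from grey to 150.2 CPM at 1 step, and IAA4 is above 0 in 6 profiles.

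Closest relatives within a class were compared by their levels. By global alignment of the proteins 19 reciprocal closest pairs were found, taking in 38 members. Both genes were above 0 in 11 pairs, 1 gene in 6 pairs and neither in 2 pairs, where 60.3% of single protein-coding loci were above 0. Of the 11 pairs, 7 had a ratio of at least 2, 5 a ratio of at least 3, and 3 had overlapping intervals. Ratios between genes that are not closest relatives were not computed, so whether these are wide was not tested.

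In the receptors AFB4 was 22.1 times AFB5 (95% interval 18.1 to 27.2; 21.9 times per kb of coding length), with proteins 78.8% identical, and this ratio rests on the AFB4 count that cannot be told apart from that of AT4G24380. TIR1 was 5.03 times AFB1 (4.23 to 6.00; 4.95 times per kb). AFB2 and AFB3, 86.1% identical, had a ratio of 1.13 (0.930 to 1.38), whose interval holds 1. After IAA2 and IAA1, AFB4 and AFB5 were the pair farthest apart of the 11 with both genes above 0.

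In the repressors the widest gap was between IAA2 and IAA1, 75.0% identical, whose degrons are printed above. IAA2 had 654 counts and IAA1, known as AXR5, had 8 counts (1.08 CPM, 0.465 to 2.12, 16 profiles), a ratio of 81.8 (41.2 to 190; 78.9 per kb of coding length). IAA7 was 3.47 times IAA14 (2.87 to 4.23), known as SOLITARY ROOT, which had 138 counts (18.6 CPM, 15.6 to 21.9, 32 profiles). IAA13 (226 counts, 30.4 CPM, 26.6 to 34.6, 38 profiles) was 3.48 times IAA12 (65 counts, 8.75 CPM, 6.75 to 11.1, 26 profiles), with an interval of 2.63 to 4.66, or 2.45 times per kb. IAA11 (87 counts, 11.7 CPM, 9.38 to 14.4, 34 profiles) was 2.07 times IAA10 (42 counts, 5.65 CPM, 4.07 to 7.64, 26 profiles), with an interval of 1.42 to 3.07 that reaches below 2-fold, and IAA11 overlaps a gene with 11.4 CPM on the other strand. IAA9 was 1.30 times IAA8 (1.19 to 1.43), a difference outside counting error but under 2-fold. IAA34 and IAA32, with 8 and 7 counts, had a ratio of 1.14 (0.362 to 3.70), and the order of these 2 is not resolved. Both overlap other genes, so their counts may include reads of those genes. With 1 gene listed at 0, IAA4 had 0.942 CPM (IAA3 at 0), IAA19 4.04 CPM (IAA6 at 0), IAA18 16.1 CPM (IAA26 at 0) and IAA30 1.75 CPM (IAA20 at 0).

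In the ARF class ARF7 was 2.62 times ARF19 (2.11 to 3.28; 2.45 times per kb of coding length), its partner in lateral root formation, which had 117 counts (15.7 CPM, 13.0 to 18.9, 32 profiles). This ratio rests on the ARF7 count, whose reads cannot be told apart from those of the gene on the other strand. ARF10 and ARF16 had a ratio of 1.63 (0.839 to 3.24), whose interval holds 1. ARF11 had 38.2 CPM with ARF18 at 0, and ARF6 had 6.06 CPM with ARF8 at 0. The pairs ARF12 with ARF22 and ARF20 with ARF21 were at 0 in both genes.

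**Figure D4:**
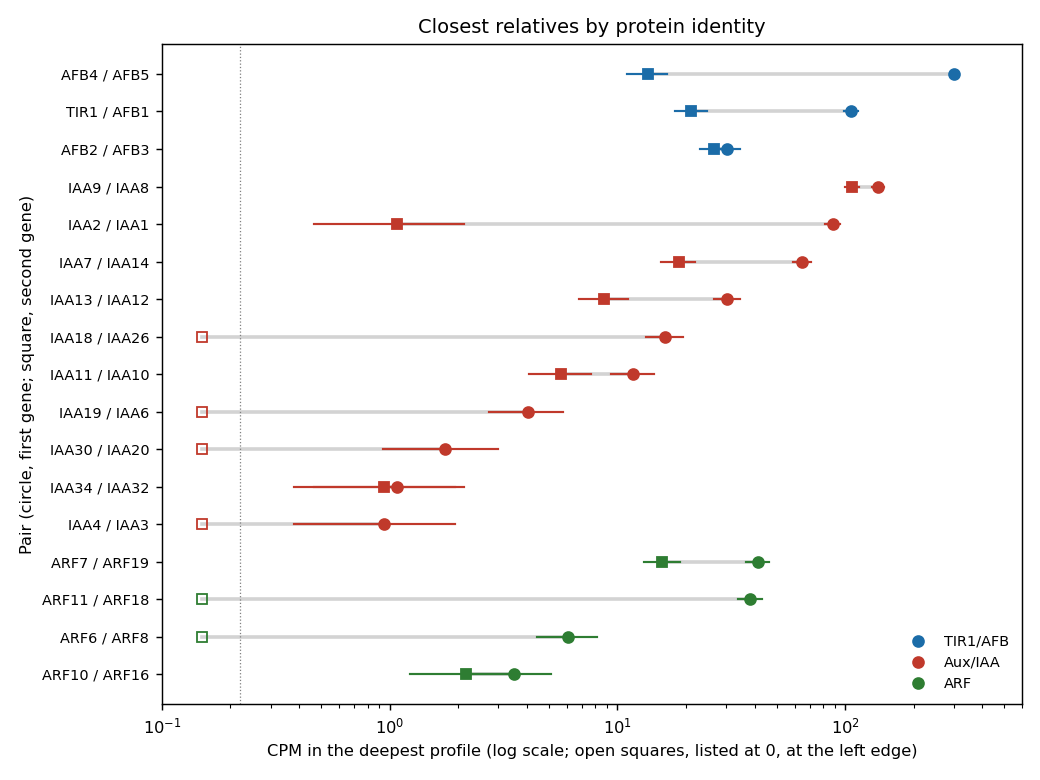
Levels of the 2 genes of 17 closest pairs in the deepest profile (horizontal axis, CPM on a log scale; circle, first gene named; square, second gene; open square, listed at 0; bars, exact Poisson 95% intervals). IAA2/IAA1 and AFB4/AFB5 have the longest lines between 2 genes above 0, and AFB2/AFB3, IAA34/IAA32 and ARF10/ARF16 have overlapping bars.

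The 3 classes also differed in the letters before their genes. TGTCTC, the classical auxin response element, was searched on both strands from 250 bases before to 50 after each RefSeq gene start. It was found for 12 of 29 Aux/IAA genes (41.4%), 1 of 23 ARF genes (4.35%) and 1 of 6 TIR1/AFB genes (16.7%), beside 14.2% of 27477 protein-coding genes. TGTCGG, which shares its first 4 letters, was found for 6 of 29 Aux/IAA (20.7%), 2 of 23 ARF and 0 of 6 TIR1/AFB genes, beside 5.12%. Of the 12 Aux/IAA genes with TGTCTC, 7 (58.3%) were above 0, beside 60.3% of protein-coding loci, and their median was 1.01 CPM. Of the 17 without it, 13 (76.5%) were above 0, with a median of 11.7 CPM. Those with it include IAA8 (106.8 CPM) and IAA28 (96.2 CPM). They also include IAA20, IAA30, IAA31, IAA32 and IAA34, which have neither form of the degron core. A match is a description of these letters and not of a bound site.

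Partners of the 3 classes were looked up beside 60.3% of protein-coding loci above 0 and 33.2% at 10 CPM or more. All 9 genes of a chosen list for the SCF ligase and its regulators, not every gene of either, were at 10 CPM or more. The lowest was AXR1, which helps attach RUB to the cullin, at 10.2 CPM (8.06 to 12.8, an interval that holds the limit). The highest was ASK1, the SKP1 subunit that holds the F-box protein, at 473 CPM. All 5 TOPLESS corepressor genes were at 10 CPM or more, from 15.5 CPM for TPR1 to 85.7 CPM for TPL. Of 8 genes known to be induced by auxin, 4 were above 0, a share not above that of protein-coding loci. GH3.5, an enzyme that joins auxin to amino acids, had 43.3 CPM, LBD16, a lateral root factor downstream of ARF7 and ARF19, had 41.0 CPM, GH3.2 had 9.42 CPM and GH3.6 had 9.15 CPM. GH3.1, GH3.3, LBD18 and LBD29 were listed at 0.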

How the data were processed

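The authors deposited 1 table of log2 values per locus and profile, described for their libraries as log2 of depth-normalised read counts plus 1. The submitters' processing notes name Bowtie2 and TAIR10. For its hand-picked cells the study names ngsutils as counter on exons, partial counting of reads with several locations and removal of genes with short coverage. Whether these steps, or strand, were used for CEL-Seq is not given in the sources used here. Columns were matched to samples by barcode for 39 of 40 samples, and 1 sample was not analysed here. No column was left unmatched (0 unused columns of per-sample values).

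The table had 32771 rows, of which 91 were ERCC spike-in RNAs. After reversing the logarithm, all values of a profile were whole multiples of 1 step, within 3.39e-06 of a whole count for counts up to 1000, and the smallest count above 0 was 2. CPM was taken over the 32678 *Arabidopsis* loci. The recovery was tested on simulated data and returned 100% of counts over 32771 rows in 3 profiles. With 1 sample there was no test, and intervals are exact Poisson (counts) or exact binomial, conditional on the summed count (ratios), at 95%.

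Coordinates, coding sequences and gene starts came from RefSeq TAIR10.1, whose locus identifiers are those of the table. Isoform 1 gave coding length and the protein, aligned globally within a class (BLOSUM62, gap opening -11, extension -1). Full values are given for the 5 members of each class with the highest counts, members of pairs at least 2-fold apart, and members with a first count of 30 or more; other members get their level, or are named at 0. Of the other pathway genes, the highest and lowest of each list have values, and for the auxin-induced list all that were above 0. The members and lists were chosen with earlier results of these data known. Alternatives were a limit of 10 CPM, thinning to 10000 counts, other denominators, levels per kb, other profiles, members left out and other fold limits; 4 more were chosen after seeing the data. Python 3.11.15, numpy 2.4.6, pandas 2.3.3, scipy 1.17.1, Biopython 1.88 and matplotlib 3.10.9 were used.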

Additional observations from a re-analysis of the deposited data

Results flagged for a closer look

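ERCC spike-in rows, which enter no comparison above and for which no control samples exist, held 4.97% of the counts of all rows in the deepest profile, with 70 of 91 rows above 0.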

How the results depend on the processing

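Of 95 values recomputed under the listed alternatives, 53 stayed and 42 moved, judged by the counting interval for some values and by 1.5 times for others. A sum was labelled moved once outside its counting interval, which can be a shift well under 1.5 times. The TIR1/AFB sum over all rows, for example, moved from 497.6 to 472.9 CPM. At a limit of 10 CPM, 24 members, 11 Aux/IAA and 7 ARF genes remained above it, 2 auxin-induced genes and 1 marker of other root cells, and the median Aux/IAA share of profiles was 0%. Thinned to 10000 counts, 9 members were above 0 (2 TIR1/AFB, 6 Aux/IAA, 1 ARF), and the median share of profiles was 30.8% for TIR1/AFB and 2.56% for Aux/IAA genes; counted over differences between successive profiles it was 79.5% and 25.6%. Summed CPM of TIR1/AFB, Aux/IAA and ARF genes was 272.3, 1432 and 204.9 per kb of coding length, 472.9, 966.0 and 426.2 over all rows, 577.8, 1181 and 520.8 without the 4 highest ribosomal RNA loci, 518.1, 982.2 and 375.7 as the mean over profiles, and 197.7, 692.6 and 256.2 without the highest member. The Aux/IAA sum was the highest in each of these. Median CPM was 16.4 for TIR1/AFB and 3.39 for Aux/IAA per kb, 33.0 for TIR1/AFB without ribosomal RNA loci, and 7.94 for ARF without ARF12 to ARF15 and ARF20 to ARF23. Aux/IAA genes with and without the full degron core summed to 1231 and 201.0 CPM per kb and to 824.4 and 157.8 CPM as the mean over profiles. ARF classes A, B and C summed to 39.7, 162.5 and 2.75 CPM per kb, and classes A and B to 110.9 and 259.9 CPM as the mean over profiles. Other denominators and omissions move a sum by construction; other causes were not tested. Of the alternatives chosen after seeing the data, a protein-coding background gave 60.3%, leaving out ARF12 to ARF15 and ARF20 to ARF23 gave 73.3% of ARF genes above 0, the degron core with any last residue gave 1013 and 3.77 CPM with and without it, and leaving out ARF9 gave an ARF sum of 256.2 CPM. With the mean over profiles the ratio of IAA34 to IAA32 was 0.896. No paired analysis was possible because there was 1 group. Levels rest on 1 sample of nested profiles with counting error only, and the lowest members, at 7 to 13 counts, have intervals spanning over 3-fold.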
